A study of Mus musculus with 8 samples.

Results

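The p53 target genes are genes whose transcription the tumour suppressor p53 is known to raise, together with Trp53 itself. The list held 39 gene symbols, and every probe set that the array's annotation gave to 1 of these symbols alone was a member. This left 35 genes with 64 probe sets, of 18193 genes with 34945 probe sets in the whole series. 19 of the 35 genes had more than 1 probe set. Trp53, Bax, Gdf15 and Fdxr lacked a single-gene probe set among those used and were not analysed here. Expression was measured on 8 Affymetrix Mouse Genome 430 2.0 arrays, in 4 groups of 2. All cells were CD4 T cells of the C57BL/6 strain, sorted as naive cells by flow cytometry, plated on antibodies to CD3 and CD28 in an RPMI-based medium and kept under Th17 conditions for 48 h. The wildtype DMSO and wildtype digoxin groups were wildtype cells given the solvent DMSO or digoxin. The RORγt-deficient DMSO and RORγt-deficient digoxin groups were cells lacking RORγt, which directs naive cells into the Th17 fate, given the same agents. Digoxin, a cardiac glycoside, blocks the sodium pump (Na,K-ATPase), and the series' title describes it and its derivatives as antagonists of RORγt. No digoxin dose, allele of the deficiency or animal is given in the sources used here. Arrays of a group are titled biological replicates, but no separate cultures or animals are named, so p-values reflect only the spread between arrays, which may be technical.

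In resting cells p53 is kept scarce by the ubiquitin ligase Mdm2, which tags it for degradation. DNA damage, nucleolar stress or oncogene activity frees p53, which then binds paired decamer half-sites near its targets and raises their transcription. The targets stop the cell cycle, chiefly through the kinase inhibitor p21 encoded by Cdkn1a, or start mitochondrial apoptosis, supply DNA repair, curb growth signals, and feed back on p53 itself. In T cells, p53 is known to limit the division that follows activation through the antigen receptor.

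Each value is a log2 difference from the average of both wildtype DMSO arrays, so these arrays lie symmetrically about 0 and no absolute level is left. The precision of the deposited numbers still placed the lowest array level of most probe sets, before centring, between 2 and 4, between 4 and 8, or at 8 and above on the log2 scale, and 238 of all 34945 probe sets, none of them a member's, could not be placed. Of the member probe sets, 31 (48.4%) lay at 8 or above, 28 (43.8%) between 4 and 8, and 5 (7.8%), called dim here, between 2 and 4, against 7351, 16583 and 10773 of all probe sets. The SD of the difference between the arrays of a group was 0.17 to 0.23 over the members and 0.19 to 0.24 over all probe sets, and the array medians over all probe sets lay from -0.0075 to 0.0193. The labelled cell type was checked on its markers: 10 of the 12 probe sets of Cd3e, Cd3d, Cd3g, Cd247, Cd4, Thy1 and Cd28 lay at 8 or above, whereas none of the probe sets of CD8 T cell, NK cell, B cell, myeloid and erythroid markers lay there. No marker probe set of any of these cell types was called in the 7 planned comparisons. At an unadjusted limma p under 0.05, however, 3 of the 12 T cell marker probe sets (25.0%) were higher with RORγt loss in DMSO and 0 lower, against 3.96% and 5.94% of all. The groups did not overlap for 7 that were higher (58.3%) and 1 that was lower (8.3%), against 19.4% and 21.6% of all. With RORγt loss under digoxin, 0 were higher or lower at that unadjusted p. The targeted gene, that of RORγt, was not analysed here and so gave no check of the genotype labels. In bulk RNA, fewer cells of a type and less RNA per cell cannot be told apart.

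Promoter sequences were examined because many members differed together between the genotypes. RefSeq (GRCm38.p6) gave windows of 250 bases before the transcription start for 27 of the 35 genes, 39 windows in all; Pmaip1, Perp, Tnfrsf10b, Rrm2b, Xpc, Ddb2, Trp53inp1 and Zmat3 had no entry. The p53 half-site motif, which is its own reverse complement and so covers both strands, was searched as a pair of half-sites with a gap of at most 13 bases and at most 1 mismatch in all. 3 member windows (7.69%) held such a pair, against 166 of all 32851 windows (0.505%), and 10 (25.6%) held at least 1 exact half-site, against 7.13% of all windows. The 3 windows with a pair are those of Ccng1, the member with the smallest adjusted p in the DMSO comparison, Cdkn1a and Rps27l, and are printed 5′ to 3′ with the pair in capitals. Each pair had no gap and 1 mismatch, and the window of another annotated start held none for Cdkn1a and for Rps27l. The Cdkn1a pair belongs to the upstream of its annotated starts, and the Rps27l pair to the downstream one. A match describes letters only and is not evidence of binding. The members were listed as known p53 targets, so a larger share of windows with sites can follow from that choice. It says nothing about the difference between the genotypes.
Ccng1, chr11:40755287-40755536, minus strand, pair from 195 to 176 bases before the start: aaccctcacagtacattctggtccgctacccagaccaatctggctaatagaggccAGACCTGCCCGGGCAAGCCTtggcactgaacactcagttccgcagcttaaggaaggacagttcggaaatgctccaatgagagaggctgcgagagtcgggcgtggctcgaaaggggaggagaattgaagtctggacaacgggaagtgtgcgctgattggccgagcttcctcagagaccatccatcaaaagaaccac
Cdkn1a, chr17:29090729-29090978, plus strand, pair from 51 to 32 bases before the start: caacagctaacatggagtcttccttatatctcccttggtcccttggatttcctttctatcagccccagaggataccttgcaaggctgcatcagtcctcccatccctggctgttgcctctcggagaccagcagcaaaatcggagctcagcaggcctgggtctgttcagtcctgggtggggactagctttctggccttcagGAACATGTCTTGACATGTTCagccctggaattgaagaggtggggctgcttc
Rps27l, chr9:66946291-66946320, plus strand, pair from 117 to 98 bases before the start, 30 bases around it: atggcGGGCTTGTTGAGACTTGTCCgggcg

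The first question was how the p53 targets differed between RORγt-deficient and wildtype cells. In DMSO, most member probe sets were higher in the RORγt-deficient cells: 49 of 64 differences were above 0, and the median over the 35 genes, each read by 1 lead probe set, was 0.23 against 0.0049 over all genes. The largest differences were those of Trp53inp1, Pmaip1, Ephx1 and Ccng1, at 0.60 to 0.66, which is 1.51- to 1.58-fold. No member passed the test (limma with Benjamini-Hochberg adjustment over all 34945 probe sets, adjusted p under 0.05), where 276 probe sets, 0.790% of all, passed. The smallest adjusted p of a member in limma was 0.0503, that of Ccng1. At an unadjusted p under 0.05, 25 member probe sets of 19 genes (39.1%) were higher and 0 were lower, against 3.96% higher and 5.94% lower over all probe sets. Both RORγt-deficient arrays lay above both wildtype arrays for 38 member probe sets (59.4%) and below them for 0, against 19.4% and 21.6% of all probe sets.

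**Figure D1:**
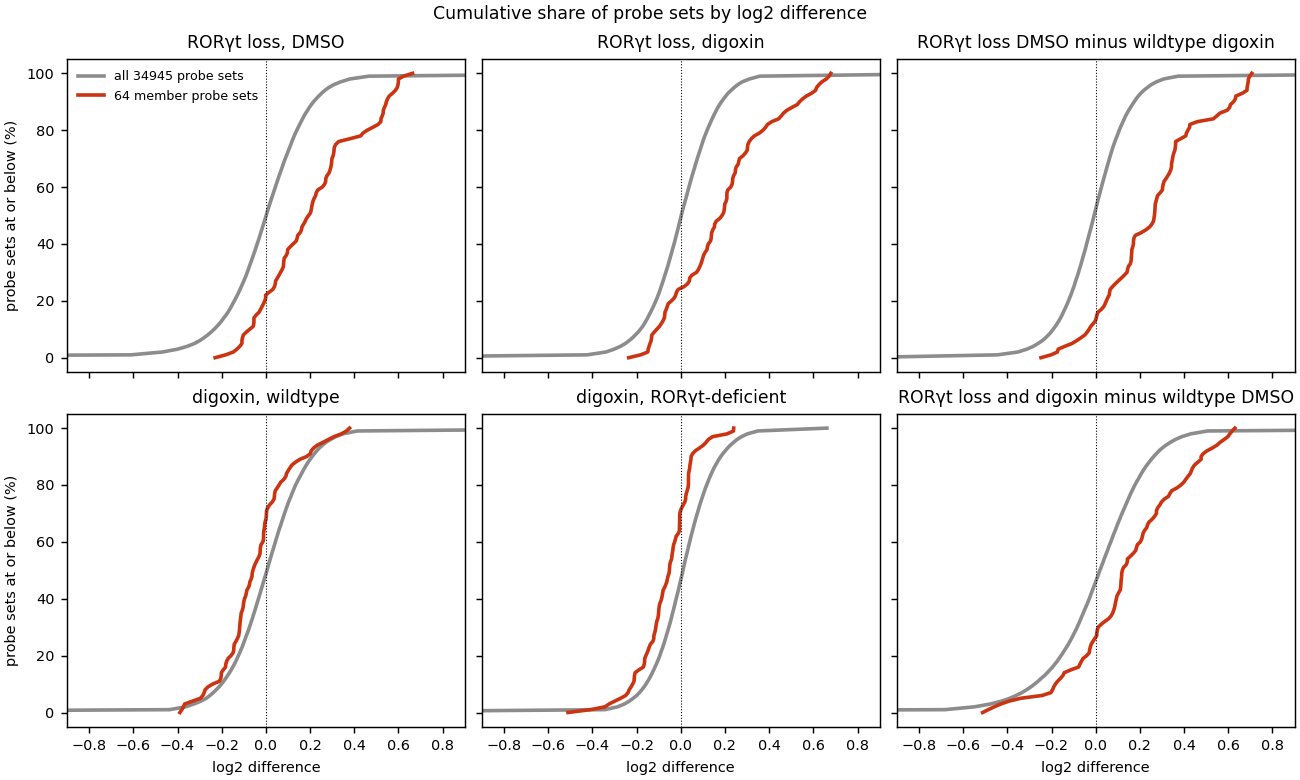
Cumulative share of probe sets (%) against the log2 difference in 6 comparisons, for the 64 member probe sets (red) and all 34945 probe sets (grey). The red curve lies to the right of the grey one in the 3 comparisons between genotypes and in the comparison of RORγt loss and digoxin with wildtype DMSO, and slightly to its left in both digoxin comparisons.

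The share of members that were higher differed with the level of the probe set. Of the 31 member probe sets at a level of 8 or above, 18 (58.1%) were higher at an unadjusted p under 0.05, against 4.03% of all probe sets at that level, and their median difference was 0.29 against -0.05. Between 4 and 8, 7 of 28 (25.0%) were higher, against 4.12%. None of the 5 dim probe sets was.

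RORγt loss under digoxin compares 4 other arrays, so it shares no array with the genotype comparison in DMSO. The median over the 35 genes was 0.23 there too, against 0.0077 over all genes. No member passed the test, where 0.00286% of all probe sets did, but 18 member probe sets (28.1%) were higher at an unadjusted p under 0.05 and 0 were lower, against 2.30% and 2.63% of all. The groups did not overlap for 38 member probe sets that were higher (59.4%) and 7 that were lower (10.9%), against 16.4% and 14.1% of all. The 25 member probe sets that were higher in DMSO at an unadjusted p under 0.05 were above 0 under digoxin in 25 of 25 cases, with a median of 0.36, and 17 (68.0%) again had an unadjusted p under 0.05. Of the 1384 probe sets so chosen among all, 79.0% were above 0 under digoxin and 15% again had an unadjusted p under 0.05, with a median of 0.12. Both comparisons share the spread that limma estimates from all 8 arrays. The members were also chosen with earlier results of these data known, so the comparison under digoxin is not an independent repeat.

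Averaging the genotype difference over both treatments, a comparison added after the values were seen, 11 member probe sets of 8 genes rose with RORγt loss and 0 fell (limma, adjusted p under 0.05), where 1.23% of all probe sets were called, 0.341% higher and 0.893% lower. At an unadjusted p under 0.05, 31 member probe sets (48.4%) were higher and 0 lower, against 4.78% and 6.80% of all. The 8 genes were Psrc1, Ccng1, Phlda3, Ephx1, Zmat3, Pmaip1, Trp53inp1 and Perp. All 4 RORγt-deficient arrays lay above all 4 wildtype arrays for 25 member probe sets (39.1%) and below them for 0, against 3.05% and 3.89% of all. The count of 11 rested on most arrays. It was 2 and 5 on leaving out wildtype DMSO arrays 1 and 2, and 7 on leaving out wildtype digoxin array 1. It was 7 and 6 for RORγt-deficient DMSO arrays 1 and 2, and 0 and 2 for RORγt-deficient digoxin arrays 1 and 2. It was also 0 after quantile normalization of the centred values. None of the 31 member probe sets changed sign in any of these settings.

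**Figure D2:**
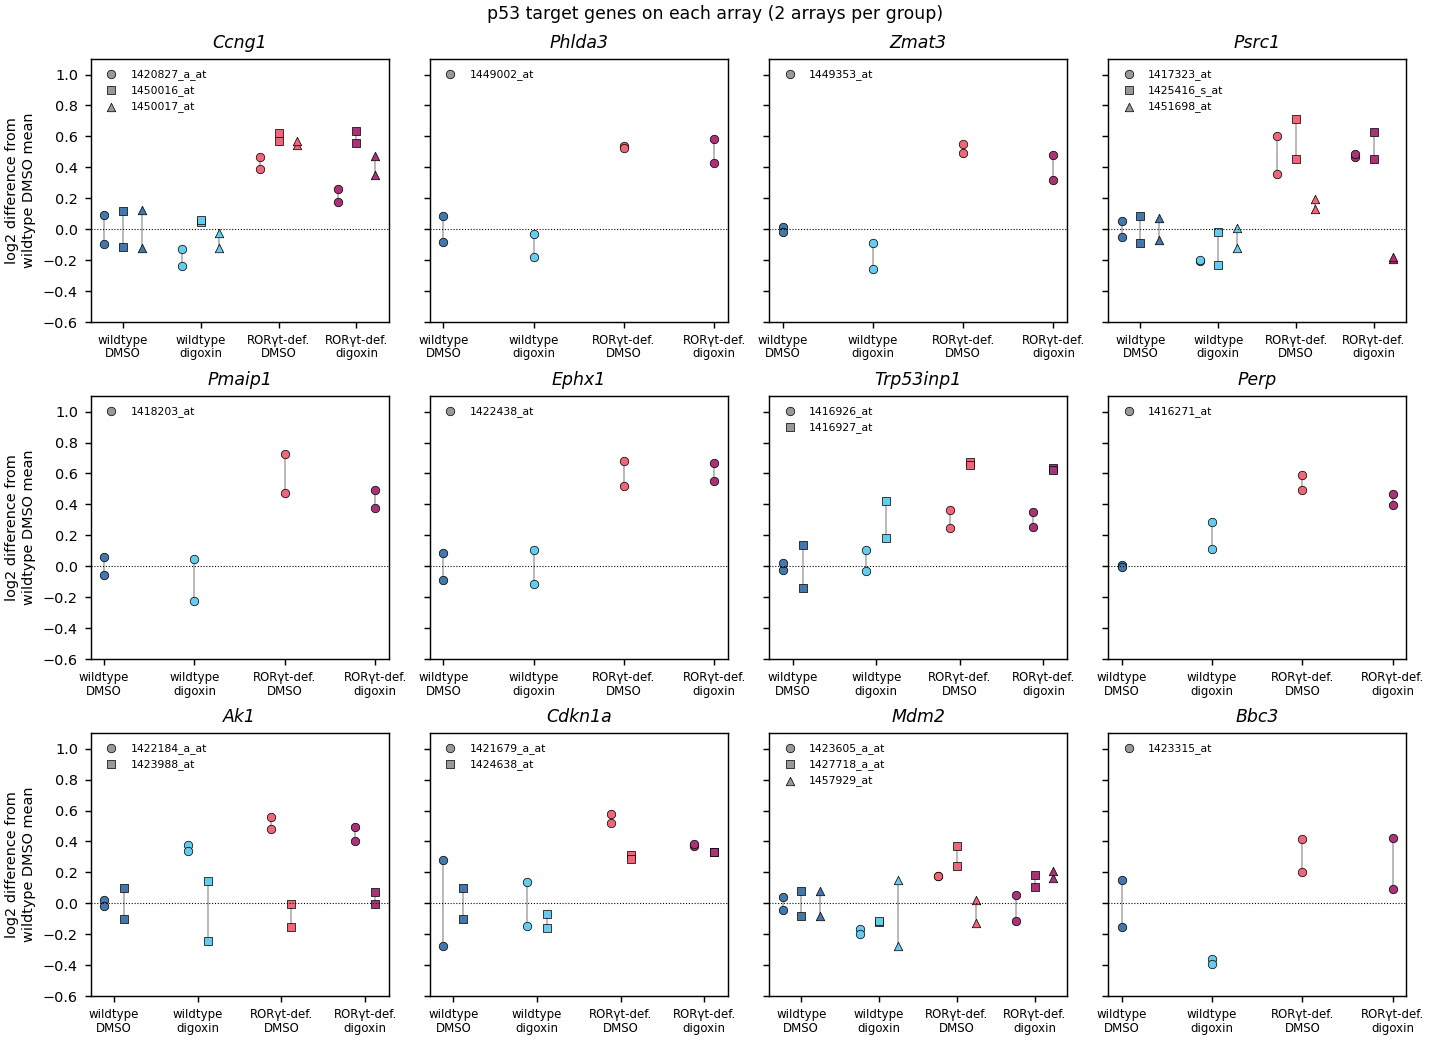
Log2 difference from the wildtype DMSO mean on each of the 8 arrays for 12 p53 target genes, with 1 marker shape per probe set, colours for the 4 groups and a line joining the 2 arrays of a group. For Ccng1, Phlda3, Zmat3, Pmaip1, Ephx1 and Perp the 4 RORγt-deficient arrays lie above the 4 wildtype arrays for every probe set shown, whereas Ak1 (1422184_a_at) is also higher on the wildtype digoxin arrays.

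Among the regulators that feed back on p53, Ccng1, cyclin G1, which recruits a phosphatase to Mdm2, stood out, and its 3 probe sets were all higher with RORγt loss. Their digoxin differences did not run alike, at -0.18 to 0.05 in wildtype and -0.21 to 0.0003 in RORγt-deficient cells. Probe set 1450016_at of Ccng1 read -0.12 and 0.12 with DMSO and 0.05 and 0.06 with digoxin in wildtype cells, and 0.57 and 0.62 with DMSO and 0.64 and 0.56 with digoxin in RORγt-deficient cells. All 4 RORγt-deficient arrays were high, and they did not overlap with the wildtype arrays. The genotype difference was 0.60 ± 0.11 (limma SE, n = 2 arrays a group) in DMSO and 0.54 ± 0.11 under digoxin, and the average rose by 0.57 ± 0.08, or 1.48-fold (limma adjusted p = 0.00977). The averages of the other Ccng1 probe sets were 0.52 for 1450017_at (limma adjusted p = 0.0173) and 0.41 for 1420827_a_at (limma adjusted p = 0.0420). Ccng1 is also 1 of the genes whose promoter window holds a half-site pair, and no link of the pair to this difference was tested.

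Mdm2, the ligase that degrades p53 and is itself a p53 target, had smaller differences. Its probe set 1427718_a_at read -0.08 and 0.08 with DMSO and -0.12 and -0.12 with digoxin in wildtype cells, and 0.24 and 0.37 with DMSO and 0.18 and 0.10 with digoxin in RORγt-deficient cells. The RORγt-deficient arrays again lay above the wildtype ones, by 0.31 ± 0.11 in DMSO and 0.26 ± 0.11 under digoxin, neither called (limma adjusted p = 0.373 in DMSO). Probe set 1423605_a_at of Mdm2 differed by 0.18 and 0.15, with 1 RORγt-deficient digoxin array at -0.11 among the wildtype values, and the dim 1457929_at by -0.05 and 0.25. Ppm1d, the phosphatase WIP1 that switches off p53 signalling, had genotype differences of -0.06 and 0.08 in DMSO on its 2 probe sets.

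Among the cell cycle arrest genes, 8 of 11 probe sets (72.7%) were higher with RORγt loss in DMSO at an unadjusted p under 0.05, against 3.96% of all. Psrc1, a microtubule-binding protein of the spindle, rose by 0.58 ± 0.08 in the average over treatments (1417323_at, limma adjusted p = 0.00968). This probe set read -0.05 and 0.05 with DMSO and -0.21 and -0.20 with digoxin in wildtype cells, and 0.36 and 0.61 with DMSO and 0.46 and 0.49 with digoxin in RORγt-deficient cells, with no overlap between genotypes. Probe set 1425416_s_at of Psrc1 rose by 0.63 ± 0.10 (limma adjusted p = 0.0146). The third, 1451698_at, read 0.13 and 0.20 in RORγt-deficient DMSO but -0.19 and -0.18 in RORγt-deficient digoxin, below all 4 wildtype arrays, so the probe sets of this gene disagreed under digoxin.

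Cdkn1a, which encodes p21, was higher on every RORγt-deficient array than on any wildtype array for both probe sets. On 1424638_at of Cdkn1a the values were 0.10 and -0.10 with DMSO and -0.07 and -0.16 with digoxin in wildtype cells, and 0.31 and 0.28 with DMSO and 0.34 and 0.33 with digoxin in RORγt-deficient cells. Its genotype difference was 0.30 ± 0.11 in DMSO and 0.45 ± 0.11 under digoxin, and the average of 0.37 ± 0.08 lay just outside the threshold (limma adjusted p = 0.0579). On 1421679_a_at the wildtype DMSO arrays of Cdkn1a themselves differed widely, at 0.28 and -0.28, against 0.52 and 0.57 in RORγt-deficient DMSO, a difference of 0.55 ± 0.17.

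The other arrest genes were less uniform. Btg2, an antiproliferative cofactor of mRNA deadenylation, differed between genotypes in DMSO by 0.53 ± 0.17 and 0.33 ± 0.11 on its probe sets, and was higher under digoxin by 0.30 on each. Plk2, a stress-induced polo-like kinase, differed by 0.30 on 1427005_at and 0.07 on 1443780_at in DMSO, and its relative Plk3 by 0.23. Gadd45a, a stress sensor that slows entry into mitosis, ran the other way: it read -0.08 and 0.08 with DMSO and -0.28 and -0.32 with digoxin in wildtype cells, and -0.22 and -0.04 with DMSO and -0.34 and -0.38 with digoxin in RORγt-deficient cells. Its digoxin arrays were the low ones in both genotypes, and the genotype groups overlapped in DMSO.

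**Figure D3:**
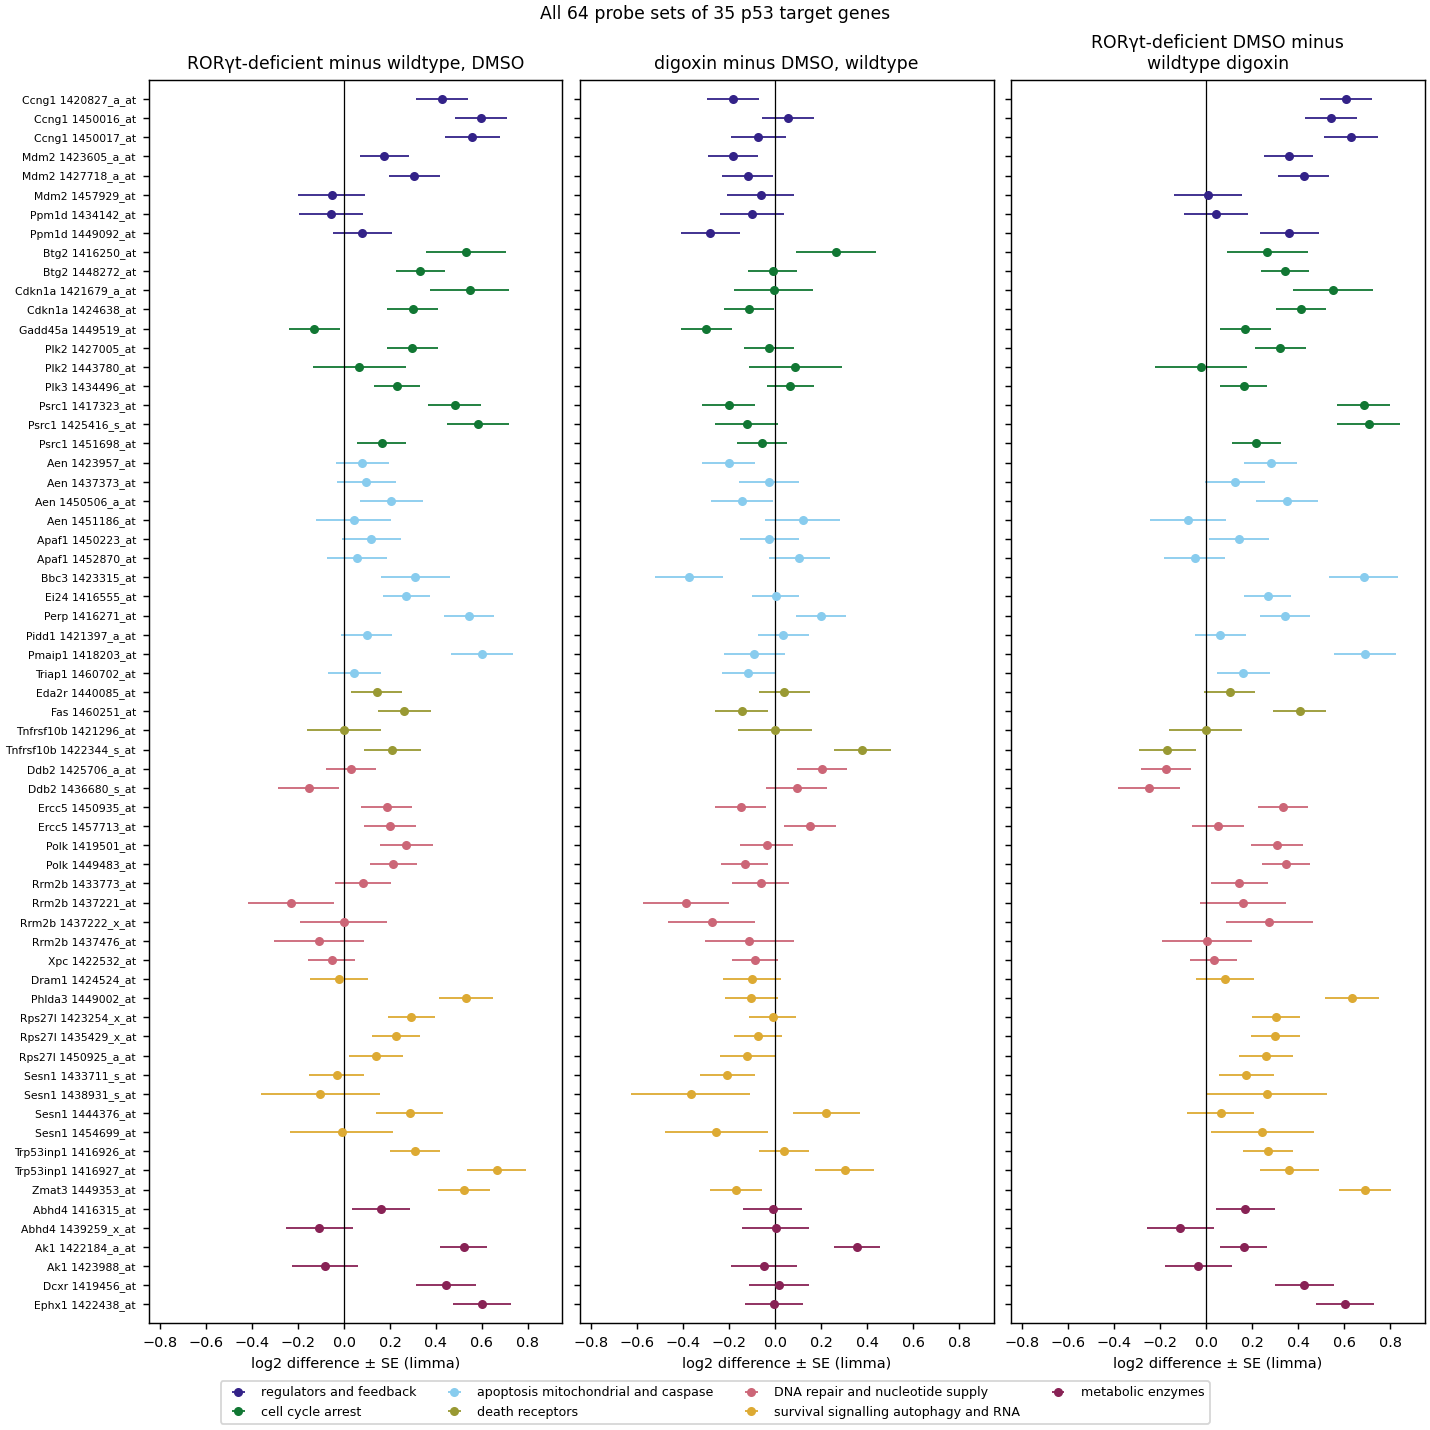
Log2 difference with its limma standard error for each of the 64 member probe sets, coloured by role, in 3 comparisons. With RORγt loss in DMSO (left) 49 of 64 points lie above 0, with digoxin in wildtype cells (middle) 21 do, and with RORγt loss compared directly with wildtype digoxin (right) 55 do.

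Of the 12 probe sets of mitochondrial and caspase apoptosis genes, 3 (25.0%, against 3.96% of all) were higher with RORγt loss in DMSO at an unadjusted p under 0.05: Pmaip1, Perp and Ei24. Pmaip1 encodes Noxa, a BH3-only protein that neutralises the survival factor Mcl-1. It read -0.06 and 0.06 with DMSO and 0.05 and -0.23 with digoxin in wildtype cells, and 0.73 and 0.47 with DMSO and 0.50 and 0.38 with digoxin in RORγt-deficient cells. The genotypes did not overlap, and Pmaip1 rose by 0.56 ± 0.09 in the average over treatments (limma adjusted p = 0.0220).

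Perp, a membrane protein linked to apoptosis and to cell adhesion, rose by 0.39 ± 0.08 in that average (limma adjusted p = 0.0478). It read 0.01 and -0.01 with DMSO and 0.29 and 0.11 with digoxin in wildtype cells, and 0.59 and 0.49 with DMSO and 0.46 and 0.39 with digoxin in RORγt-deficient cells, so that the wildtype digoxin arrays lay between wildtype DMSO and the RORγt-deficient arrays. Bbc3, which encodes the BH3-only protein PUMA, read 0.15 and -0.15 with DMSO and -0.36 and -0.39 with digoxin in wildtype cells, and 0.20 and 0.42 with DMSO and 0.09 and 0.42 with digoxin in RORγt-deficient cells. The wildtype digoxin arrays of Bbc3 were the low ones, so its genotype difference was 0.31 ± 0.15 in DMSO and 0.63 ± 0.15 under digoxin, neither called.

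Ei24, an endoplasmic reticulum protein, differed by 0.27 in DMSO and 0.21 under digoxin, with no overlap between the genotypes. The remaining genes of this role, the nuclease Aen, the apoptosome scaffold Apaf1, the death-domain scaffold Pidd1 and the apoptosis restrainer Triap1, had genotype differences in DMSO from 0.04 to 0.21 over 8 probe sets, none at an unadjusted p under 0.05.

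The death receptors had 1 of 4 probe sets (25.0%, against 3.96% of all) higher in DMSO at an unadjusted p under 0.05, that of Fas, by 0.26. Fas read 0.03 and -0.03 with DMSO and -0.25 and -0.04 with digoxin in wildtype cells, and 0.23 and 0.29 with DMSO and 0.09 and 0.24 with digoxin in RORγt-deficient cells, with all RORγt-deficient arrays above the wildtype ones. Tnfrsf10b, the mouse TRAIL receptor, followed another pattern on 1422344_s_at, reading 0.10 and -0.10 with DMSO and 0.40 and 0.36 with digoxin in wildtype cells, and 0.34 and 0.08 with DMSO and 0.23 and 0.23 with digoxin in RORγt-deficient cells. Here the wildtype digoxin arrays were highest. The other Tnfrsf10b probe set, 1421296_at, had 1 RORγt-deficient digoxin array at 0.48 and the next highest array at 0.10.

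DNA repair and nucleotide supply genes had 1 of 11 probe sets (9.1%, against 3.96% of all) higher in DMSO at an unadjusted p under 0.05. That was Polk, a polymerase that copies past damaged bases, whose 1419501_at read -0.07 and 0.07 with DMSO and 0.00 and -0.07 with digoxin in wildtype cells, and 0.19 and 0.36 with DMSO and 0.06 and 0.18 with digoxin in RORγt-deficient cells. The groups in DMSO did not overlap, and the difference was 0.27 ± 0.11. The nucleotide excision repair genes Xpc, Ddb2 and Ercc5 differed by -0.15 to 0.20.

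Rrm2b, the p53-inducible subunit of ribonucleotide reductase, had 4 probe sets with genotype differences in DMSO between -0.23 and 0.08. On 1437222_x_at of Rrm2b, a type of probe set that may also bind other transcripts, the values were -0.12 and 0.12 with DMSO and -0.23 and -0.32 with digoxin in wildtype cells, and 0.32 and -0.33 with DMSO and -0.43 and -0.59 with digoxin in RORγt-deficient cells. The RORγt-deficient DMSO arrays thus stood on either side of 0, and the digoxin arrays were low in both genotypes.

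Of the 12 probe sets of genes for survival signalling, autophagy and RNA, 5 (41.7%, against 3.96% of all) were higher in DMSO at an unadjusted p under 0.05. Phlda3, which keeps the survival kinase Akt off the membrane, read -0.08 and 0.08 with DMSO and -0.03 and -0.18 with digoxin in wildtype cells, and 0.54 and 0.53 with DMSO and 0.58 and 0.43 with digoxin in RORγt-deficient cells. It rose by 0.57 ± 0.08, or 1.48-fold, in the average over treatments (limma adjusted p = 0.0108). Zmat3, a zinc finger protein that binds RNA, read 0.01 and -0.01 with DMSO and -0.09 and -0.26 with digoxin in wildtype cells, and 0.55 and 0.49 with DMSO and 0.48 and 0.32 with digoxin in RORγt-deficient cells, and rose by 0.55 ± 0.08 (limma adjusted p = 0.0112). For both genes every RORγt-deficient array lay well above every wildtype array.

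Trp53inp1, a nuclear stress protein that also acts in autophagy, had the largest difference of any member in DMSO, 0.66 ± 0.13 on 1416927_at (limma adjusted p = 0.0543). It read -0.14 and 0.14 with DMSO and 0.18 and 0.42 with digoxin in wildtype cells, and 0.67 and 0.65 with DMSO and 0.64 and 0.62 with digoxin in RORγt-deficient cells. As for Perp, the wildtype digoxin arrays lay in between. Its other probe set, 1416926_at, differed by 0.31 in DMSO and had the wildtype digoxin arrays at 0.11 and -0.03.

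Rps27l, a near copy of the ribosomal protein gene Rps27, differed by 0.14 to 0.29 in DMSO on 3 probe sets, 2 of which are of the type that may bind other transcripts, and by 0.19 to 0.21 under digoxin. A half-site pair lies in 1 of its 2 promoter windows, that of the downstream start. Sesn1, a sestrin that restrains mTORC1, had 4 probe sets between -0.10 and 0.29 in DMSO, and Dram1, a lysosomal autophagy protein on a dim probe set, differed by -0.02.

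Among the metabolic enzymes, Ephx1, the microsomal epoxide hydrolase, read -0.09 and 0.09 with DMSO and 0.10 and -0.11 with digoxin in wildtype cells, and 0.68 and 0.52 with DMSO and 0.67 and 0.55 with digoxin in RORγt-deficient cells. Its groups separated by genotype and overlapped by treatment, and it rose by 0.61 ± 0.09, or 1.52-fold, in the average (limma adjusted p = 0.0112). Dcxr, a carbonyl reductase of the pentose route, had an average genotype difference of 0.45 ± 0.09, just outside the threshold (limma adjusted p = 0.0504). Abhd4, a lipase of the N-acyl ethanolamine pathway, differed by 0.16 and -0.11 in DMSO on its probe sets.

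Ak1, an adenylate kinase, differed from the other enzymes in its digoxin arrays. On 1422184_a_at it read 0.02 and -0.02 with DMSO and 0.37 and 0.34 with digoxin in wildtype cells, and 0.48 and 0.56 with DMSO and 0.41 and 0.49 with digoxin in RORγt-deficient cells. Every group other than wildtype DMSO was high. The genotype difference was 0.52 ± 0.10 in DMSO (limma adjusted p = 0.0552) and 0.09 ± 0.10 under digoxin. The dim probe set 1423988_at of Ak1 had values from -0.24 to 0.14 with no such order.

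The next question was whether digoxin, given to wildtype cells, moved the p53 targets. 21 of 64 differences were above 0, and the median over the 35 genes was -0.05 against 0.01 over all genes. No member passed the test (smallest limma adjusted p of a member 0.505), where 24 probe sets, 0.0687% of all, did. At an unadjusted p under 0.05, 3 member probe sets (4.7%) were higher and 2 (3.1%) lower, close to the 3.21% and 3.45% of all probe sets. The groups did not overlap for 10 that were higher (15.6%) and 18 that were lower (28.1%), against 18.4% and 19.0% of all.

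The 3 higher probe sets were those of Ak1 (0.36 ± 0.10), Tnfrsf10b (0.38 ± 0.12) and Trp53inp1 (0.30 ± 0.13), and the 2 lower ones those of Gadd45a (-0.30 ± 0.11) and Bbc3 (-0.38 ± 0.15). Most genes called in the averaged comparison had digoxin differences in wildtype cells near or below 0. These were 0.05 for Ccng1 (1450016_at), -0.10 for Phlda3, -0.17 for Zmat3, -0.01 for Ephx1, -0.09 for Pmaip1 and -0.20 for Psrc1 (1417323_at), with standard errors from 0.11 to 0.13. The others, Perp and Trp53inp1 (1416927_at), were higher with digoxin, by 0.20 and 0.30. The other Trp53inp1 probe set, 1416926_at, differed by 0.04. The comparison of digoxin in wildtype cells and that of RORγt loss in DMSO share the wildtype DMSO arrays. The averaged comparison also uses the wildtype digoxin arrays, and higher values on them make its difference smaller. Its called genes were therefore not chosen independently of their digoxin values in wildtype cells. Cdkn1a differed with digoxin by -0.11 and -0.01 and Mdm2 by -0.18 to -0.06 on their probe sets.

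In RORγt-deficient cells, digoxin gave a median of -0.02 over the 35 genes, against 0.02 over all genes, and no member passed the test, where 0.00286% of all probe sets did. At an unadjusted p under 0.05, 0 member probe sets were higher and 3 (4.7%) were lower, against 2.18% and 1.25% of all: Psrc1 1451698_at (-0.35), Rrm2b 1437222_x_at (-0.51) and Rrm2b 1433773_at (-0.28). The groups did not overlap for 18 member probe sets that were lower (28.1%) and 5 that were higher, against 11.8% and 16.1% of all. The difference between the digoxin effects of the genotypes, with a median standard error of 0.18, was called for no member and for 0% of all probe sets, while at an unadjusted p under 0.05 it was higher for 535 of all probe sets (1.53%) and lower for 468 (1.34%). Its 1 member at an unadjusted p under 0.05 was Ak1 (1422184_a_at, -0.43), which was higher with digoxin by 0.36 in wildtype and by -0.07 in RORγt-deficient cells.

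RORγt loss was then set directly against digoxin, as RORγt-deficient DMSO minus wildtype digoxin, which leaves out the wildtype DMSO arrays. 55 of 64 member probe sets were above 0, and the median over the 35 genes was 0.27 against -0.01 over all genes. At an unadjusted p under 0.05, 30 member probe sets of 21 genes (46.9%) were higher and 0 lower, against 2.13% and 3.23% of all probe sets, while neither a member nor any other probe set passed the adjusted test (0% called, smallest limma adjusted p of a member 0.197). The groups did not overlap for 38 that were higher (59.4%) and 3 that were lower (4.7%), against 14.1% and 16.3% of all. The largest differences were those of Psrc1 (0.71 ± 0.14 on 1425416_s_at), Zmat3 (0.69 ± 0.11), Pmaip1 (0.69 ± 0.13), Bbc3 (0.69 ± 0.15) and Phlda3 (0.63 ± 0.12). The RORγt-deficient DMSO arrays enter this comparison and the one in DMSO alike. Differences below 0 were those of both Ddb2 probe sets (-0.18 and -0.25), Tnfrsf10b 1422344_s_at (-0.17), Abhd4 1439259_x_at (-0.11) and 5 others nearer to 0.

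Cells with both RORγt loss and digoxin, compared with wildtype DMSO, gave the 1 member call of the planned comparisons. Ccng1 rose by 0.60 ± 0.11, or 1.51-fold, on 1450016_at (limma adjusted p = 0.0387), where 1.22% of all probe sets were called and 0.375% rose. This call was lost without either wildtype DMSO array (limma adjusted p = 0.271 and 0.121), either RORγt-deficient DMSO array (0.0511), either RORγt-deficient digoxin array (0.188 and 0.201) and after quantile normalization of the centred values (0.48, limma adjusted p = 0.654), with the difference at 0.48 to 0.71 throughout. The other Ccng1 probe sets differed less in this comparison, by 0.41 on 1450017_at and 0.22 on 1420827_a_at, and were not called. At an unadjusted p under 0.05, 19 member probe sets (29.7%) were higher and 3 (4.7%) lower, against 6.62% and 8.26% of all. The lower ones were Gadd45a (-0.36) and Rrm2b 1437221_at and 1437222_x_at (-0.47 and -0.51). The groups did not overlap for 32 that were higher (50.0%) and 8 that were lower (12.5%), against 26.2% and 23.4% of all.

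Other genes of the pathway came from lists drawn from general knowledge. A further 26 p53 targets with 53 probe sets had a median genotype difference in DMSO of -0.0045 per gene, with 2 probe sets (3.8%) higher and 4 (7.5%) lower at an unadjusted p under 0.05, near the 3.96% and 5.94% of all probe sets. 1 of the 53 was called, where 0.790% of all were: E2f7, a repressor of the cell cycle, fell by 0.67 (limma adjusted p = 0.0498). Under digoxin the median of this list was 0.12 per gene, with 4 probe sets higher and 2 lower at an unadjusted p under 0.05 and 0 called. Their medians on the RORγt-deficient arrays lay between -0.0030 and 0.0429, and the lists were not tested against each other. Of 78 probe sets of 30 regulators upstream of p53, 6 (7.7%) were higher and 14 (17.9%) lower in DMSO at an unadjusted p under 0.05, against 3.96% and 5.94% of all. The kinase Atr, which signals stalled replication, fell by 0.75 on 1445091_at (limma adjusted p = 0.0337), and no other regulator was called in DMSO.

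**Figure D4:**
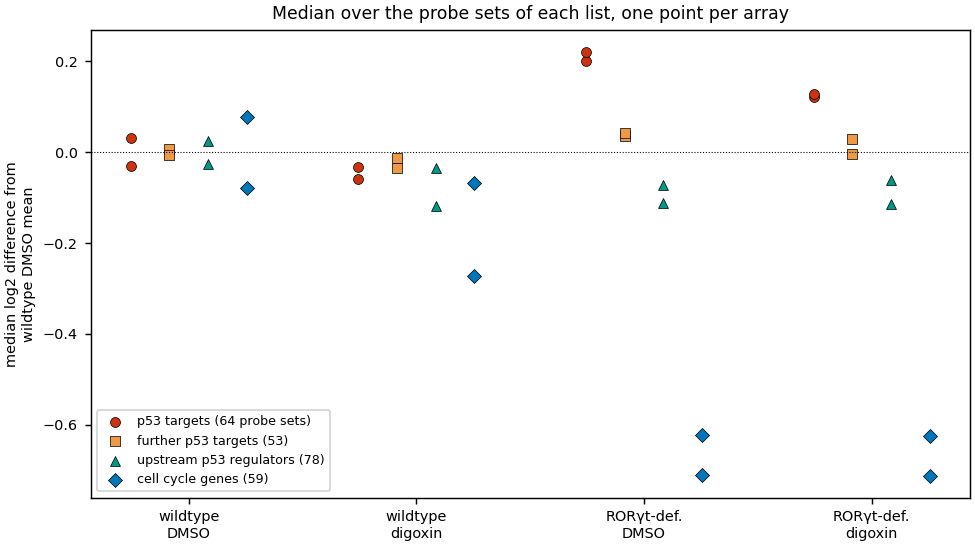
Median log2 difference from the wildtype DMSO mean over the probe sets of each of 4 gene lists, 1 point per array. The p53 targets lie at 0.20 and 0.22 on the RORγt-deficient DMSO arrays and at 0.12 and 0.13 on the RORγt-deficient digoxin arrays, and the cell cycle genes at -0.62 to -0.71 on these 4 arrays.

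In the comparisons between genotypes, cell cycle genes of the kind that p21 is known to repress moved in the opposite direction to the members. With RORγt loss in DMSO, 23 of 59 probe sets of 24 such genes fell, in 18 genes, and 0 rose, where 0.790% of all probe sets were called, with a median of -0.79 per gene. Under digoxin and in the comparison with wildtype digoxin 0 of the 59 were called by limma, while 44 and 42 were lower at an unadjusted p under 0.05, with medians of -0.53 and -0.61 per gene. Examples of the falls with RORγt loss in DMSO were the mitotic kinesin Kif23 (-1.07 on 1455990_at, limma adjusted p = 0.00527), the kinetochore protein Cenpf (-1.13, limma adjusted p = 0.00652), cyclin B2, Ccnb2 (-1.05, limma adjusted p = 0.00726), and the checkpoint kinase Bub1 (-1.18, limma adjusted p = 0.0102). The per-array medians of this list were -0.62 to -0.71 on the 4 RORγt-deficient arrays and -0.27 to 0.08 on the wildtype ones, and those of the members 0.12 to 0.22 and -0.06 to 0.03. T cell markers had per-array medians of 0.15 to 0.21 and -0.05 to 0.13. The part of the cell cycle genes or of the T cell markers in the members' differences was not tested.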

How the data were processed

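Total RNA of the 8 samples was hybridised to 1 array each. Per the submitters' processing notes the arrays were summarised with RMA, which corrects background and normalises by quantiles, and the design text names GeneSpring GX 11.5. The log2 values that the authors deposited cover 45101 probe sets including 64 controls. Those of the wildtype DMSO pair sum to 0 within 1e-06, so each value is a difference from that pair's mean; no label records this centring, and the base of the logarithm rests on RMA and on the numbers' binary precision. The level ranges are likewise read from that precision, and no label states them.

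Names came from the platform annotation, which gave 1 symbol to 34958 probe sets, several to 932 and none to 9211. The 34945 named probe sets that are no controls, of which 34741 matched the RefSeq table, were fitted with limma 3.58.1 in R 4.3.3 (lmFit with 4 group means over all 8 arrays, then eBayes). The fit had 4 residual and 5.7 prior degrees of freedom and a median SD of 0.128. Tests were two-sided, with Benjamini-Hochberg adjustment over all probe sets of a comparison. Precision is limited by the number of arrays.

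The members, gene lists and tests were chosen with earlier results of these data known. Values of every array were given for Cdkn1a, Mdm2, each member called in a planned comparison and the 4 members of smallest unadjusted p in each comparison; values of Pmaip1 and Fas on every array, and those of members called only in the averaged comparison, were added after they were seen. Genes of other lists were named where called, at most 4 a list. A gene's lead probe set followed the suffix order _at, _a_at, _s_at, _x_at and then the identifier. Alternatives were 1 probe set per gene, other probe set filters, array weights, scalings, a trended prior, blocks by replicate number, only the compared groups, and leaving out each array. Quantile normalization, 1 of the scalings, was applied to the deposited differences from the wildtype DMSO mean. It forced these differences onto 1 distribution for all arrays, so it did not normalise expression levels anew and cannot show how the results depend on that step.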

Additional observations from a re-analysis of the deposited data

Results flagged for a closer look

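For 3 member probe sets, both digoxin arrays lay on one side of both DMSO arrays in wildtype cells and on the opposite side in RORγt-deficient cells. How many of all probe sets did so was not counted, so this number is not a result about the members. The difference between the digoxin effects, RORγt-deficient minus wildtype, was -0.31 for Perp (1416271_at), which differed with digoxin by 0.20 in wildtype and -0.11 in RORγt-deficient cells. It was -0.34 for Trp53inp1 (1416927_at), with 0.30 in wildtype and -0.03 in RORγt-deficient cells. It was 0.15 for Xpc (1422532_at), with -0.09 in wildtype and 0.07 in RORγt-deficient cells. None of the 3 differences was called by limma (adjusted p = 1.00 for each), and no cause was tested.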

How the results depend on the processing

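With 4 residual degrees of freedom, counts of called members moved more than the differences. For RORγt loss in DMSO (0 called) the count was 1 with 1 lead probe set per gene (Ccng1), 1 with the replicate number as a block (Trp53inp1), 4 with array weights, 4 without the dim probe sets and 6 with a trended, robust prior, and 0 to 1 leaving out an array. For RORγt loss against wildtype digoxin (0) it was 2 with the trended prior. For RORγt loss plus digoxin (1) it was 2 with lead probe sets, 3 with the replicate block, 3 with only the compared groups, 3 without dim probe sets, 4 with array weights, 6 with the trended prior, 0 after quantile normalization and 0 to 3 leaving out an array. For the averaged comparison (11) it was 0 after quantile normalization and 0 to 8 leaving out an array. At an unadjusted p under 0.05, 39.1% of member probe sets were higher in DMSO with array weights, against 4.45% of all. The shares were 44.1% and 4.45% without dim probe sets, and 39.1% and 3.99% with the trended prior. For loss plus digoxin they were 29.7% and 7.89%, 32.2% and 6.83%, and 34.4% and 6.48%. The shares of all probe sets called after adjustment in these settings are not given for either comparison. Same-numbered arrays correlated in their deviations by -0.255 to -0.139 where wildtype DMSO was 1 of the pair and by 0.317 to 0.477 otherwise, so the numbers were not taken as pairing the arrays. With the wildtype DMSO numbers exchanged, a block chosen after seeing the data, 9, 9 and 18 members were called in these 3 comparisons (in DMSO, plus digoxin, averaged).

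Over all probe sets, the 276 called in DMSO became 4 after quantile normalization of the centred values, 152 with only the compared groups, 674 with the exchanged block and 19 to 322 leaving out an array. The 425 called with loss plus digoxin became 8, 691, 1424 and 14 to 483. The 431 of the averaged comparison became 1, 1089 (exchanged block) and 125 to 430, and the 24 for digoxin in wildtype cells 5, 10 (compared groups), 83 (exchanged block) and 4 to 21. In the other planned comparisons, with 0 or 1 called, the most were 12 under digoxin (exchanged block) and 17 against digoxin (trended prior). The cause was not tested.

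The median over the members in DMSO (0.23) was 0.27 without dim probe sets, 0.20 after quantile normalization and 0.19 to 0.25 leaving out an array. After quantile normalization it was 0.17 under digoxin, 0.22 against digoxin, 0.13 with loss plus digoxin and 0.17 averaged. With the mean of a gene's probe sets it was -0.0508 for digoxin in RORγt-deficient cells, 0.20 under digoxin and 0.20 against digoxin. Leaving out an array gave -0.0644 to -0.0116 for digoxin in wildtype, -0.0520 to 0.0250 for digoxin in RORγt-deficient cells, 0.20 to 0.25 under digoxin, 0.23 to 0.27 against digoxin, 0.16 to 0.21 with loss plus digoxin and -0.0301 to 0.0920 for the difference of digoxin effects. None of the 25 member differences in DMSO with an unadjusted p under 0.05 changed sign in any alternative, whereas 21 of the other 39 did in at least 1.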
